A study of Mus musculus with 6 samples.

Results

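The Zfp genes are the mouse genes for zinc finger proteins that carry a serial number in place of a functional name. Members were taken as symbols made of Zfp followed only by digits, without Zfp36, which encodes an RNA-binding protein of another kind. The tables held 304 such genes among 12718, against 366 protein-coding genes with such symbols in RefSeq (GRCm38.p6). The data are ChIP-seq counts of the RNA polymerase II subunit RPB1, its catalytic and largest one, pulled down through its N-terminal domain (NTD). Each gene has a count around its transcription start site (TSS), over its gene body and around its transcription end site (TES). The source was the adrenal glands of 6 mice, 3 WT (wild type) and 3 KO (Armc5 knockout, Armc5-/-), all female, of strain 129 sv X CD1 and 10 to 14 months old, and each library carried its own mouse number. How the allele was made is not given in the sources used here, and the Armc5 row was not analysed here.

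Most proteins of this family bind DNA through tandem C2H2 fingers, in which pairs of cysteines and histidines hold a zinc ion. Many also carry a KRAB domain, which recruits the corepressor TRIM28 and through it the histone methyltransferase SETDB1, and such proteins are best known for silencing transposable elements. KRAB zinc finger genes multiplied by local duplication and many lie in clusters of close relatives. Armc5 encodes an armadillo-repeat protein that serves as a substrate adaptor of a CUL3 ubiquitin ligase acting on RPB1.

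Library depth differed within both genotypes. Counts per library came to between 14511177 and 28190157 over the 3 regions, and at the TSS to between 1133364 and 3406223. The 3 shallowest libraries were those of WT replicates 1 and 2 and KO replicate 1. In these 3 the predicted gene Gm10800 held 10.9 to 25.1% of all TSS counts, against 2.67 to 4.66% in the other 3. Levels are given as CPM, read counts relative to library size, adjusted within each region table by the trimmed mean of M values (TMM). Cortical genes marked the tissue: in the WT libraries Star, Cyp11b1 and Cyp21a1, which encode proteins of steroid synthesis, were among the most occupied genes, with gene body CPM per kb at percentiles of 99.6 to 99.98. Of the 7 cortical markers 6 lay above the median of all genes, and Mc2r, the gene of the ACTH receptor, lay at percentile 37.4. The 5 medullary markers summed to 20.5 to 59.1 CPM per kb in WT and 30.6 to 108 in KO, the 7 cortical markers to 126 to 265 and 164 to 201, and none was called in the gene body. The 2 fibroblast markers summed to 2.54 to 6.52 in WT and 1.91 to 2.24 in KO, without overlap, the 2 endothelial ones to 4.11 to 4.61 and 3.36 to 4.21, and Cd68 of macrophages measured 6.26 to 13.3 and 6.97 to 12.4. How far tissue makeup moved the values below was not tested, and in whole glands fewer cells of a type and less polymerase per cell cannot be told apart.

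Promoters of the family were poorer in CpG dinucleotides than those of other genes. RefSeq (GRCm38.p6) promoter windows, from 250 bases before to 50 bases after a start, were found for 249 members and for 9911 genes in all. The median window of the members held 15 CpG and 55.0% G or C, against 21 CpG and 61.3% over all genes. The GC box GGGCGG, the core letters bound by SP1-type factors, stood on either strand in 45.4% of the members' windows and in 66.4% of all. CCAAT, the letters bound by NF-Y, stood in 48.2% against 38.8%, and TATAAA in 6.43% against 6.60%. The 250 bases upstream of 3 starts show the range, with each CpG in capitals. Zfp592 had the second highest TSS level of the family in WT, Zfp239 the second lowest, and Zfp809 the smallest p in the TSS comparison below.
Zfp592, chr7:80993434-80993683, plus strand: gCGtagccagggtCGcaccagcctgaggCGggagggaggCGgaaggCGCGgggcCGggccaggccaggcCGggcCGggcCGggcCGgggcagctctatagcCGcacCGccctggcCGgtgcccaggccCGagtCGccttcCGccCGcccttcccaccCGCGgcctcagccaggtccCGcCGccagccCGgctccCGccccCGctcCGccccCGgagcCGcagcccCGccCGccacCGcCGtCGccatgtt
Zfp239, chr6:117861774-117862023, plus strand: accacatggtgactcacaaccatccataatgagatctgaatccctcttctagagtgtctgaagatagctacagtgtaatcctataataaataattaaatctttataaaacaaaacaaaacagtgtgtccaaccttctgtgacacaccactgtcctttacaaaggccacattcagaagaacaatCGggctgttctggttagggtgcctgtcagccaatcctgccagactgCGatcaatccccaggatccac
Zfp809, chr9:22225453-22225702, plus strand: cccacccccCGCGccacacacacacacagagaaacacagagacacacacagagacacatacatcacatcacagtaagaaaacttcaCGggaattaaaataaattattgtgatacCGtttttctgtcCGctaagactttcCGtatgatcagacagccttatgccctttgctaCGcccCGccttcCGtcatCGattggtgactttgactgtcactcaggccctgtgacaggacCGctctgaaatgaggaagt
The Zfp592 stretch holds 33 CpG, the Zfp809 stretch 11 and the Zfp239 stretch 2. The last bases of the Zfp809 stretch lie inside the gene span given below.

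A short sequence was more frequent in the promoters of the family, and of some related zinc finger genes, than over all genes. ACTACA, the letters that open the site bound by the activator ZNF143 (mouse Zfp143), stood on either strand in 64 of 249 windows (25.7%), against 1043 of 9911 (10.5%) over all genes. It stood in 4 of 14 windows of Zscan and Zkscan genes (28.6%) and in 6 of 22 of other Zfp symbols (27.3%), but in 0 of 34 of Zbtb genes. Each ACTACA was then read with the 5 letters that follow it. The form most frequent in the members was ACTACATTTCC, in 27 windows (10.8%), against 133 (1.34%) over all genes, of which 106 were in the 9662 genes outside the family. In other Zfp symbols it stood in 4 of 22 (18.2%), so it is not particular to the members. It was picked for its frequency in the members, so its share is a description. Outside the family ACTACAACTCC led, in 109 windows, and it stood in 2 members. ACTACAATTCC stood in 9 members (3.61%) and 64 other genes (0.662%). Of the 27 members, 22 lie in genomic clusters, most of them on chromosomes 7 and 13, and duplicated neighbours are not independent. The 8 windows shown, 29 bases on the strand that reads ACTACATTTCC (in capitals), come from the chromosome 7 cluster (Zfp84, Zfp790, Zfp383), the chromosome 13 cluster (Zfp457, Zfp595, Zfp273) and genes outside both (Zfp189, Zfp605), and let the shared letters beyond the capitals be compared.
Zfp84, chr7:29768521-29768549, minus strand: ttatagtggACTACATTTCCcagaaggcg
Zfp790, chr7:29815960-29815988, minus strand: cggccttgaACTACATTTCCcagaatacc
Zfp383, chr7:29908467-29908495, plus strand: caatcgcggACTACATTTCCcagaagcgt
Zfp457, chr13:67306471-67306499, plus strand: ggcgatgggACTACATTTCCcacaagtca
Zfp595, chr13:67332591-67332619, plus strand: gtggtagggACTACATTTCCcacaagtca
Zfp273, chr13:67813741-67813769, minus strand: cagagagaaACTACATTTCCcagaagtct
Zfp189, chr4:49521146-49521174, minus strand: ggcaagcgaACTACATTTCCcggaatgca
Zfp605, chr5:110110061-110110089, minus strand: cgatgtagaACTACATTTCCcagagatcc
The 27 members held 29 such matches, and CA followed the capitals in 27 of them. The match read against the direction of the gene in 22 and along it in 7. These are letters in a window, not bound sites.

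In WT glands the family sat in the middle of all genes at its promoters and below the middle at its 3′ ends. The median log2 TSS level was 5.74 over members and 5.75 over all genes, and their difference, taken within each WT library, was -0.0012 ± 0.082 (SD, n = 3). It was -0.066, -0.028 and 0.090 in WT replicates 1, 2 and 3, so its sign varied between mice. In the gene body, on log2 CPM per kb of RefSeq gene span, the difference was -0.083 ± 0.034, and it was below 0 in each WT library. Among genes that overlap no other gene it was -0.18. At the TES it was -0.23 ± 0.086, with -0.31, -0.14 and -0.24 in the 3 libraries. The members' levels lay closer together than those of all genes at the TSS. The 10th to 90th percentile ran from 14.8 to 129 CPM over members and from 10.3 to 149 CPM over all genes, and the interquartile range was 1.55 against 2.18 on the log2 scale. These are descriptions without a test, since genes are not replicates. How wide the windows at both ends are is not given in the sources used here, so levels at these ends are per window.

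**Figure D1:**
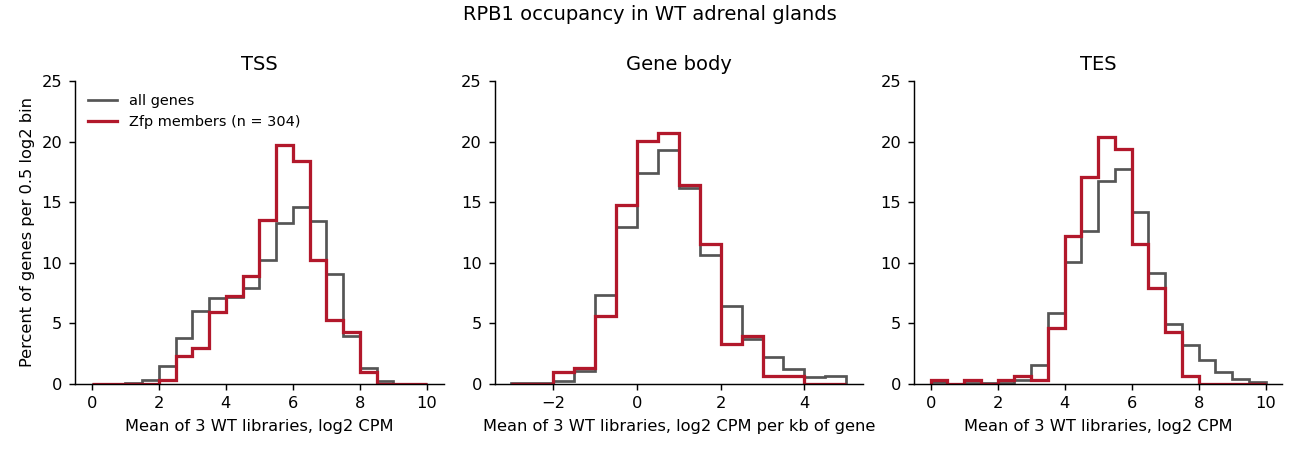
Distribution of RPB1 occupancy over the 3 regions in WT, as the percent of genes per bin of 0.5 log2 units, for the 304 Zfp members (red) and all genes (grey); each gene is the mean of 3 libraries, in log2 CPM or, for the gene body, log2 CPM per kb. The members' TSS peak is narrower than that of all genes, and their TES curve lies to the left of it, with 41.1% of members above the median of all genes.

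The ratio of TSS to gene body level, which is higher where polymerase is held near the promoter, was slightly higher in the family. The median log2 ratio was 4.90 over members and 4.76 over all genes, a difference of 0.13 ± 0.038 (SD, n = 3 WT libraries). It was above 0 in all 6 libraries, with 0.17, 0.13 and 0.10 in WT and 0.17, 0.12 and 0.15 in KO. Among genes with at least 10 counts in every WT library the difference was 0.071. In WT it was 0.58 ± 0.066 in Zscan and Zkscan genes and 0.60 ± 0.089 in Klf genes. In Zbtb genes it was 0.083 ± 0.14 and in other Zfp symbols -0.028 ± 0.13. A higher ratio is therefore not particular to the members. The ratio of TES to gene body level was near that of all genes, with a difference of -0.073 ± 0.061. Gene spans were shorter in the family, with a median of 17.3 kb against 23.1 kb, and the counted spans can differ from the RefSeq spans used here.

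**Figure D2:**
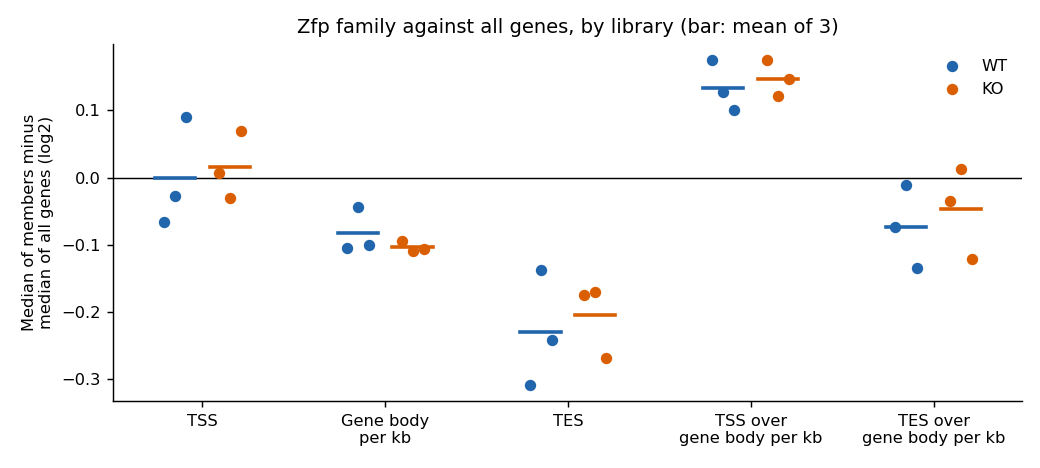
Median of the 304 members minus the median of all genes (log2, y axis) within each library for the 3 regions and the ratios of TSS and TES to gene body; points are libraries of WT (blue) and KO (orange), and bars are means of 3. The TES points lie between -0.31 and -0.14, the ratios of TSS to gene body between 0.10 and 0.17, and WT and KO points overlap for each measure.

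Members in genomic clusters carried less polymerase than members that stand alone. With clusters taken as at least 3 members no more than 500 kb apart, 167 members fell into 25 clusters and 137 were single. Against all genes, the clustered members differed in WT by -0.11 ± 0.074 for TSS levels, -0.25 ± 0.051 over gene bodies and -0.37 ± 0.16 at the TES (log2, SD, n = 3). The single members differed by 0.18 ± 0.040, 0.062 ± 0.029 and -0.040 ± 0.060. In the gene body and at the TSS clustered members lay below all genes, and single members above them, in each of the 6 libraries. Clustered promoters also held fewer CpG, with a median of 12 against 17.5. Neighbouring paralogs can share reads, and 106 of 304 members (34.9%) overlapped another RefSeq gene, against 46.6% of all genes. Some other zinc finger families stood higher at the TSS in WT: the 18 Zscan and Zkscan genes by 0.37 ± 0.15 against all genes, the 39 Zbtb genes by 0.71 ± 0.10 and the 13 Klf genes by 1.79 ± 0.11. The 27 genes with other Zfp symbols stood lower, with a difference of -0.38 ± 0.12.

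Within the family, promoters with more CpG carried more polymerase at the TSS. Each window is at a start RefSeq lists, which need not be the most upstream: for Zfp809 it lies inside the gene span given below. More than 1 start is listed for 40 of 249 members, and the start counted may be another. With members cut into 4 groups by CpG count, from 1 to 9, 10 to 15, 16 to 21 and 22 to 59 CpG per window, the members' median WT TSS levels were 33.9, 53.6, 51.4 and 88.5 CPM. All genes with the same CpG counts had medians of 18.0, 39.7, 58.0 and 77.0 CPM. In the lowest group it was 29.7, 37.7 and 33.1 CPM in replicates 1, 2 and 3. Across the 249 members, Spearman's rho between CpG count and TSS level was 0.45, and across all 9911 genes it was 0.41, over the same libraries and windows. The 64 members with ACTACA had a median of 36.3 CPM and 12 CpG, and the 185 without it 58.9 CPM and 17 CpG, so motif and CpG content moved together and their parts were not separated.

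**Figure D3:**
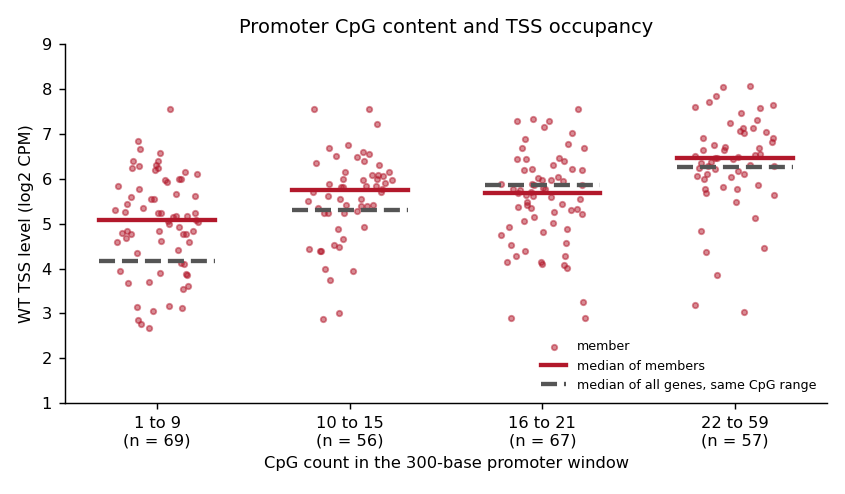
WT TSS level (log2 CPM, mean of 3 libraries) of the 249 members with a RefSeq promoter window, in 4 groups by CpG count in the 300-base window; red bars are the members' medians and dashed bars those of all genes with the same CpG counts. The members' median was 33.9 CPM in the group with the fewest CpG and 88.5 CPM in that with the most.

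At the top of the TSS order in WT, by mean CPM, stood Zfp397 (295 ± 22.1 CPM), Zfp592 (271 ± 40.4), Zfp131 (268 ± 54.4) and Zfp568 (257 ± 63.2; SD, n = 3). These 4 did not differ beyond their spread. Zfp592 encodes a partner of the chromatin reader ZMYND8, and Zfp131 a BTB-domain zinc finger protein. Zfp568, a KRAB protein known for silencing a placental promoter of Igf2, measured 220, 221 and 330 in WT against 163, 223 and 277 CPM in KO, and the groups overlapped. Zfp397 overlaps Zscan30, so its reads may be shared. At the bottom, by mean CPM, stood Zfp750 (5.01 ± 2.18), a regulator of epidermal differentiation, Zfp239 (6.34 ± 1.96) and Zfp217 (6.86 ± 3.03). Zfp217, a transcriptional corepressor amplified in breast cancer, had 113, 101 and 118 CPM over its gene body in WT and 130, 125 and 130 CPM in KO. Its gene body level of 2.57 ± 0.20 CPM per kb lay above the family's median of 1.60, although its TSS window was nearly empty; which of its starts was counted is not given in the sources used here.

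Gene body occupancy per kb was highest in Zfp652 (15.6 ± 0.56), Zfp513 (14.9 ± 5.78), Zfp703 (11.1 ± 2.13) and Zfp503 (9.58 ± 0.63). Zfp703 and Zfp503 encode the related NET family corepressors, and Zfp652 a DNA-binding partner of the corepressor CBFA2T3. Zfp459 (0.279 ± 0.10), Zfp109 (0.349 ± 0.082) and Zfp991 (0.379 ± 0.16) were lowest. At the TES the highest were Zfp865 (246 ± 67.3 CPM), Zfp513 (201 ± 54.2), Zfp703 (182 ± 46.2) and Zfp524 (178 ± 18.3). Zfp513 varied with the mouse in all regions, from 31.9 to 74.0 CPM over the gene body in WT. At the TES, Zfp575, Zfp74 and Zfp960 held at most 11 counts in any library and were not tested.

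The balance between promoter and gene body spread over a wide range. Among members with at least 10 counts in every WT library in both regions, the log2 ratio of TSS CPM to gene body CPM per kb was highest in Zfp69 (8.02 ± 0.60), Zfp568 (7.45 ± 0.41) and Zfp407 (7.38 ± 0.61), and lowest in Zfp652 (1.30 ± 0.28), Zfp574 (1.31 ± 0.56) and Zfp296 (1.37 ± 0.79). Zfp407 spans chr18:84207701-84589539 and held 178, 149 and 200 CPM at its TSS in WT. With the same count minimum, the ratio of TES CPM to gene body CPM per kb was highest in Zfp329, Zfp456 and Zfp846 (6.98, 6.95 and 6.71), and lowest in Zfp579, Zfp652 and Zfp706 (1.59, 1.81 and 1.91). Zfp329, Zfp456 and Zfp846 each overlap another RefSeq gene. Across members, Spearman's rho between TSS and gene body per kb was 0.49, and between gene body per kb and TES 0.62, against 0.47 and 0.67 over all genes. These points share libraries and depth.

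Of the 28 members of known function, 18 lay above the family's median TSS level of 55.0 CPM in WT and 10 below it, from Zfp217 to Zfp131. Zfp143 (155 ± 14.9 CPM), an activator of protein-coding and small nuclear RNA genes, and Zfp148 (162 ± 43.2), a binder of GC-rich promoters, both lay above the 90th percentile of members, as did Zfp207 (188 ± 28.6), which encodes a spindle assembly protein. Zfp326 (131 ± 31.6), a subunit of the DBIRD complex that links polymerase to splicing, and Zfp335 (130 ± 3.40), a coactivator subunit, were close to that percentile. Zfp410, an activator of the remodeller gene Chd4, had 118 ± 4.21 CPM and the large protein gene Zfp292 had 120 ± 13.8. Zfp281, a binder of GC-rich DNA in stem cells, had 87.1, 88.9 and 84.2 in WT against 86.1, 85.7 and 84.2 CPM in KO, values that hardly varied between the 6 mice.

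The paralogs Zfp423 and Zfp521, cofactors of early B cell factors, were low at the TSS and followed depth. Zfp423 measured 31.6, 27.9 and 10.2 in WT against 38.3, 14.2 and 13.5 CPM in KO. Zfp521 measured 39.2, 26.9 and 16.0 in WT against 43.3, 15.1 and 21.2 CPM in KO. For both, the 3 shallow libraries were the 3 highest, in either genotype. Over their gene bodies, at chr8:87661810-87962053 and chr18:13687013-13972749, they held 1.15 ± 0.18 and 0.967 ± 0.19 CPM per kb. The adipocyte regulators Zfp467 and Zfp516 had 48.8 ± 2.25 and 54.9 ± 4.90 CPM at the TSS, near the family's median of 55.0. Zfp638, which encodes a nuclear RNA-binding protein, had only 17.1 ± 5.15 CPM at its TSS but 52.4 ± 8.36 at its TES, while Zfp64 had 69.0 ± 14.4 and 18.7 ± 5.62.

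The knockout comparison asks whether polymerase on these genes shifts when Armc5 is lost. No member was called in any region at an adjusted p under 0.05 (edgeR quasi-likelihood test, Benjamini-Hochberg adjustment over all genes tested). At the TSS 0 of 304 members were called, where 0.339% of all genes were; in the gene body 0 of 304, against 0.252%; and at the TES 0 of 301, against 0.915%. DESeq2 and limma-voom also called 0 in each region. At an unadjusted p under 0.05 there were 9 members for TSS levels (2.96%, against 5.57% of all genes), 6 in the gene body (1.97%, against 5.05%) and 20 at the TES (6.64%, against 6.85%). The median standard error (SE) of a member's log2 fold change was 0.21 (TSS), 0.18 (gene body) and 0.25 (TES), which limits what 3 mice per group can show.

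The family as a whole showed little shift. The median log2 fold change of KO over WT over members was 0.021 (TSS), -0.014 (gene body) and 0.0087 (TES), against -0.0093, -0.019 and -0.016 over all genes tested. Fold changes also spread less among members, with an SD of 0.26, 0.18 and 0.31 in the 3 regions against 0.35, 0.28 and 0.36. A log2 fold change beyond 0.5 in either direction was measured in 19 members for TSS levels (6.25%, against 12.3%), in 5 in the gene body (1.64%, against 6.86%) and in 30 at the TES (9.97%, against 13.3%). All 3 KO libraries lay above all 3 WT libraries in 23 members at the TSS (7.57%, background 6.46%) and below them in 11 (3.62%, background 4.94%). In the gene body these counts were 20 (background 6.51%) and 6 (background 3.87%), and at the TES 19 (background 6.7%) and 11 (background 4.83%). When the regions were scaled together the median over all genes moved to 0.24 (TSS), -0.12 (gene body) and -0.12 (TES), and that of the members to 0.27, -0.12 and -0.095, so only the distance from all genes is read here.

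**Figure D4:**
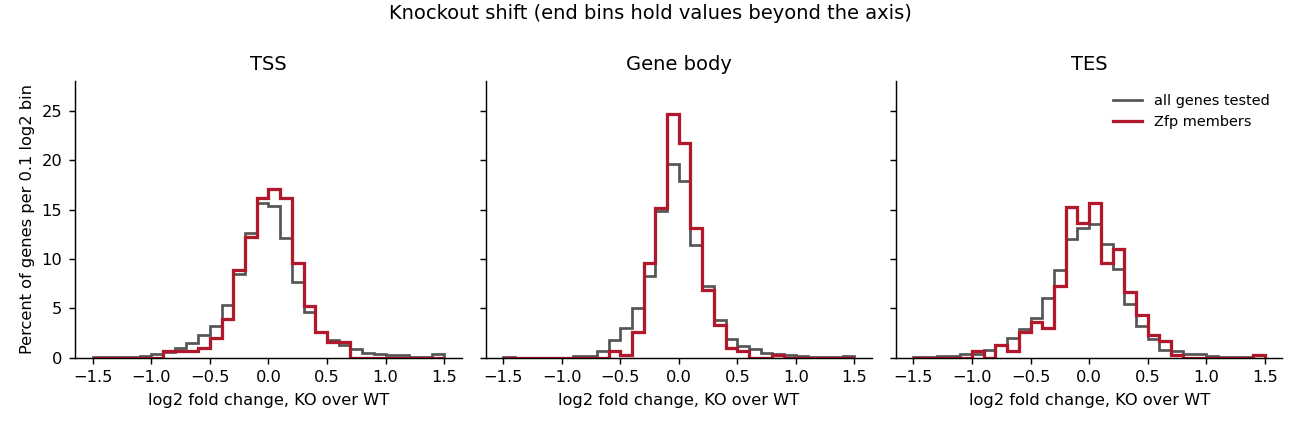
Log2 fold change of KO over WT for each region, as the percent of genes per bin of 0.1, for the Zfp members (red) and all genes tested (grey). Both curves centre near 0, and the members' curve is narrower in the gene body, with an SD of 0.18 against 0.28.

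Zfp809 had the smallest p of the family at the TSS. It encodes a KRAB protein known for silencing murine leukaemia virus and related endogenous retroviruses through their primer binding site, and lies at chr9:22225667-22254117. At the TSS it measured 69.1, 49.6 and 69.8 in WT against 94.0, 103 and 101 CPM in KO. All KO mice lay above all WT mice, with a log2 fold change of 0.64 ± 0.17 (SE) that did not pass (adjusted p = 0.354). At the TES it measured 69.2, 50.0 and 57.3 in WT against 74.3, 122 and 84.6 CPM in KO, again without overlap (0.67 ± 0.23, adjusted p = 0.275). Over the gene body, with 54.7, 29.9 and 34.6 against 47.5, 75.7 and 48.6 CPM, the groups overlapped (0.53 ± 0.27, adjusted p = 0.934). The gene overlaps its neighbour Zfp599, whose TSS log2 fold change was -0.074 ± 0.40 and whose TES value was 0.28 ± 0.23, so part of the TES reads may be shared. Zfp809 and Zfp938 were the members with an unadjusted p under 0.05 in 2 regions, while 31 members had it in 1 region and 271 in none. The matching share over all genes was not counted, so this is a description.

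The other members with the smallest p at the TSS were Zfp54 and Zfp65 on the higher side and Zfp213, Zfp358 and Zfp710 on the lower. Zfp54 measured 31.0, 31.0 and 36.5 in WT against 42.8, 52.0 and 62.9 CPM in KO, with every KO mouse above every WT mouse (0.67 ± 0.22, adjusted p = 0.558). Its gene body had no such difference, with a log2 fold change of -0.018 ± 0.18. Zfp65 groups overlapped (0.64 ± 0.26, adjusted p = 0.781). Zfp213 measured 195, 182 and 207 in WT against 161, 151 and 121 CPM in KO, without overlap (-0.44 ± 0.16, adjusted p = 0.684), and overlaps 6330415G19Rik. Zfp358 (-0.56 ± 0.22, adjusted p = 0.750) and Zfp710 (-0.90 ± 0.38, adjusted p = 0.824) had overlapping groups, and the deeper WT replicate 3 and shallow KO replicate 1 met in Zfp710 at 23.0 and 27.0 CPM.

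In the gene body the smallest p belonged to Zfp949 (chr9:88548020-88571086). It measured 29.3, 35.6 and 34.0 in WT against 43.4, 52.2 and 47.6 CPM in KO, without overlap (0.54 ± 0.15, adjusted p = 0.410). Its TSS did not differ beyond the spread (0.17 ± 0.29). Zfp446 (0.39 ± 0.16) and Zfp938 (0.42 ± 0.17) were also higher in each KO mouse, and Zfp931 (-0.55 ± 0.20) and Zfp341 (-0.35 ± 0.15) lower in each, with adjusted p between 0.791 and 0.934. Zfp281 was the other member with all KO mice above WT at an unadjusted p under 0.05, with 22.5, 16.7 and 22.1 in WT against 23.2, 31.9 and 28.2 CPM in KO over the gene body (0.44 ± 0.19, adjusted p = 0.934).

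At the TES the smallest p belonged to Zfp970 (chr2:177464742-177479194), at 51.4, 135 and 96.7 in WT against 44.5, 64.9 and 51.6 CPM in KO. WT replicate 1 lay within the KO range, and the log2 fold change of -0.78 ± 0.26 did not pass (adjusted p = 0.198). Without WT replicate 1 it was -1.09 and passed (adjusted p = 0.0236). The same gene had -0.52 ± 0.25 over the gene body and -0.57 ± 0.33 at the TSS. Zfp451, which encodes a SUMO ligase, measured 44.9, 45.1 and 38.0 in WT against 36.0, 19.2 and 24.6 CPM in KO, without overlap (-0.70 ± 0.27, adjusted p = 0.443). Zfp93 measured 26.0, 30.4 and 33.2 in WT against 56.7, 51.2 and 34.9 CPM in KO, without overlap (0.66 ± 0.25, adjusted p = 0.427). Zfp959 (0.63 ± 0.24) and Zfp422 (-0.55 ± 0.24) had overlapping groups. Zfp260, a transcription factor of heart muscle, had 66.2, 53.9 and 86.2 in WT against 91.2, 134 and 88.0 CPM in KO (0.59 ± 0.24, adjusted p = 0.490).

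**Figure D5:**
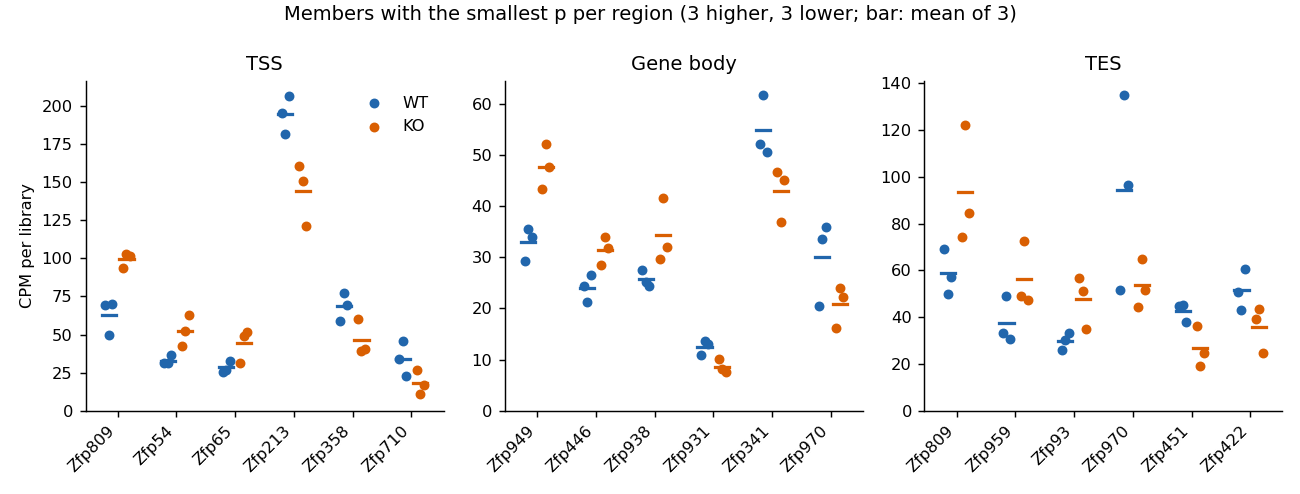
CPM per library of the members with the smallest p in each region, 3 with higher and 3 with lower values in KO; points are libraries of WT (blue) and KO (orange), and bars are means of 3. Zfp809 at the TSS (49.6 to 69.8 CPM in WT, 94.0 to 103 in KO) and Zfp949 in the gene body show no overlap, whereas Zfp970 at the TES overlaps through WT replicate 1.

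The split between regions was also tested, with each region scaled on its own. Such a test cannot show a change of the split that most genes share. TSS counts relative to gene body counts differed between genotypes in 0 of 304 members (background 0%), and that of TES to gene body counts in 0 of 301 (background 0.0158%; edgeR region by genotype interaction). At an unadjusted p under 0.05 these were 5 members (1.64%, against 3.64% of all genes) and 17 (5.65%, against 5.7%). DESeq2 was not run on the ratios. The TSS ratio with the smallest p was that of Zfp101, with log2 ratios of 3.58, 3.68 and 3.88 in WT and 4.45, 4.77 and 4.82 in KO (0.98 ± 0.26, adjusted p = 0.955). Its groups did not overlap. Zfp65 (0.62 ± 0.25) and Zfp442 (0.69 ± 0.29) were next on the higher side, and Zfp710 (-0.93 ± 0.38), Zfp839 (-0.45 ± 0.20) and Zfp60 (-0.42 ± 0.19) on the lower. For the TES ratio the higher ones were Zfp974 (0.73 ± 0.25), Zfp935 (0.66 ± 0.23) and Zfp975 (0.77 ± 0.28), and the lower ones Zfp414 (-0.51 ± 0.18), Zfp451 (-0.70 ± 0.26) and Zfp219 (-0.51 ± 0.20), each with an adjusted p of 0.793 or 0.839.

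Clustered and single members differed slightly at the TSS in the knockout, as a description. The median log2 fold change was 0.057 over the 167 clustered members and -0.0096 over the 137 single ones, with 59.3% and 47.4% above 0, against 48.4% of all genes tested. Against all genes, the clustered members' TSS median stood at -0.18, -0.11 and -0.036 in WT and -0.10, -0.068 and -0.051 in KO. These groups overlapped, and the shallow libraries (WT replicates 1 and 2, KO replicate 1) were the lowest. For single members it was 0.15, 0.16 and 0.22 against 0.097, 0.086 and 0.11, without overlap. The part of depth in these values was not tested. Of the 6 clusters with at least 10 members, values above 0 at the TSS were measured in 12 of 15 members on chr13:67038594-67827000, 12 of 15 on chr7:29768552-30169775, 10 of 11 on chr17:32765496-33631716, 16 of 22 on chr17:21008941-23599755 and 8 of 12 on chr7:24081877-25227876. On chr7:127233061-127885996 it was 2 of 10. That cluster had 9 of 10 above 0 in the gene body, and the other 5 had between 3 of 12 and 8 of 15. The 64 members with ACTACA in the promoter window had a median TSS log2 fold change of 0.13 and the 185 without it -0.010. Of the 27 with ACTACATTTCC, whose median WT TSS level was 29.5 CPM, 21 had a TSS log2 fold change above 0, with a median of 0.12. Their medians were -0.0093 over gene bodies and -0.048 for the TES. None of these differences was tested, and joint scaling adds the shift given above to each fold change.

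Of the repression pathway that KRAB proteins act through, 27 of 32 listed genes were in the tables, among them Setdb1, the HP1 genes Cbx1, Cbx3 and Cbx5, and the remodeller genes Chd3 and Chd4. In WT they lay above all genes by 0.45 ± 0.16 at the TSS and 0.60 ± 0.14 at the TES (median, log2). In each region 0 of 27 were called by edgeR, DESeq2 or limma-voom, where edgeR called 0.339% (TSS), 0.252% (gene body) and 0.915% (TES) of all genes. At an unadjusted p under 0.05 the edgeR fit had 0, 2 and 2 of 27 in these regions, against 5.57%, 5.05% and 6.85% of all genes. They were Hdac1 and Daxx in the gene body (0.33 ± 0.14 and 0.59 ± 0.22) and Hdac1 and H3f3b at the TES (0.59 ± 0.24 and -0.65 ± 0.30), named after their values were seen. One gene of a related family was called, also named after its values were seen: Zkscan16, a zinc finger gene with a SCAN and a KRAB domain in its name, rose at the TES. It measured 16.6, 29.4 and 10.5 in WT against 42.2, 60.3 and 53.1 CPM in KO (1.57 ± 0.30, adjusted p = 0.0015), without overlap. At the TES 1 of 18 Zscan and Zkscan genes was thus called, and 0 of 39 Zbtb, 0 of 13 Klf and 0 of 27 other Zfp symbols. Of all genes 0.915% were called there.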

How the data were processed

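Members, gene lists and tests were chosen with earlier results of these data known. The deposited tables hold whole-number counts per gene at the TSS, gene body and TES, 1 column per mouse, with 958001 to 22523647 counts per library and table. The authors also deposited log2 CPM values, which were not used. Per the submitters' processing notes, reads were handled with limma, edgeR, HOMER, MACS2, Picard, BWA, Trimmomatic and bcl2fastq 2.20 (order and roles unstated) on GRCm38, also listed as mm10. What counted the reads, over which windows and with what input, is not given in the sources used here, so near-identical paralogs and overlapping genes can share reads.

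Counts were tested in R 4.3.3 with the quasi-likelihood test of edgeR 4.0.16 (TMM within each table, filterByExpr with a minimum count of 10, Benjamini-Hochberg adjustment over all genes tested, calls at 0.05), fitted on whole tables with no covariate; the test was checked on simulated data. Ratios were tested as a region by genotype interaction with the library as block. DESeq2 1.42.0 and limma 3.58.1 (voom), other scalings, filters and covariates, and leaving out each library were the alternatives. WT levels are log2 CPM with 0.5 counts added, per kb of RefSeq span in the gene body. Genotype and replicate came from the labels, and 6 mouse numbers were taken as 6 animals.

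Named members were the 3 with the smallest p per test and direction, the 4 highest and 3 lowest in mean WT level per region, the 3 highest and 3 lowest WT ratios among members with at least 10 counts in every WT library, and those of a list of 30 with well-known functions, of which Zfp57 and Zfp42 are not analysed here. Grouping by KRAB or SCAN domain and finger number was not analysed here. RefSeq matched 304 of 304 members and 12380 of 12718 genes.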

Additional observations from a re-analysis of the deposited data

How the results depend on the processing

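Under the alternatives run, the 5 tests called 0 members with 2 exceptions, both for Zfp970 at the TES. With the replicate number as a block 1 member was called (adjusted p = 0.0485), and leaving out 1 library in turn gave 0 to 1 members, the 1 without WT replicate 1. The replicate numbers were not taken as pairs in the main fit. Deviations of same-numbered libraries had correlations of 0.44, -0.21 and 0.36 (TSS), 0.086, -0.58 and 0.27 (gene body) and 0.031, -0.31 and 0.21 (TES). They were above 0 for replicates 1 and 3 and below 0 for replicate 2. With 3 libraries per group these values cannot decide whether the mice were paired. Among genes that overlap no other gene the WT difference from all genes was -0.18 in the gene body, -0.32 at the TES and 0.18 for the TSS to gene body ratio, which was 0.071 with at least 10 counts in every WT library. The cause was not tested. The members named for the smallest p kept the sign of their fold change in all alternatives run (30 pairs of gene and test). They were picked for a small p in these same libraries, so a kept sign was likely and is a description. Other named members were not followed. With 3 mice per genotype an exact permutation test of 1 value cannot go below 0.1, and low TES counts limit the precision there.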
